A study of Mus musculus with 4 samples.

Results

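Galectins are small lectins that bind beta-galactoside sugars on glycoproteins and glycolipids. The 4 galectin genes described here, Lgals1, Lgals3, Lgals8 and Lgals9, were taken by name from 32287 gene features of the matrices of an injured and an uninjured mouse spinal cord library. They were chosen with the values of these libraries known. Levels and differences between conditions or classes are therefore given as a description. Galectins leave cells without a signal peptide and cross-link surface receptors from outside, and several of them bind glycans that become exposed on the inner face of ruptured endosomes and lysosomes. Lgals1 encodes the prototype form, a single sugar-binding domain that pairs with itself. Lgals3 encodes the chimera form, in which a long N-terminal tail lets the protein form larger assemblies, and it has long served as a surface marker of activated macrophages. Lgals8 and Lgals9 encode tandem-repeat forms with a linked pair of different sugar-binding domains.

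The cells came from Cx30-Tom mice (Cx30-CreERT2 crossed to R26R-tdTomato) given tamoxifen, so that cells using the gap junction gene Cx30, mainly astrocytes, and their descendants carry tdTomato. Mice of both conditions, aged 8 to 12 weeks, had received an adeno-associated virus library of enhancers in the blood. The injured group was sampled 3 days after a contusion of the spinal cord and the uninjured group had no contusion. Segments of 5 mm were digested with papain, tdTomato-positive cells were sorted, and 1 library with 3′ chemistry was made per condition from a pool of 1 to 2 animals per sex. With 1 library per condition no test between conditions was possible, and all intervals below are exact 95% intervals that cover counting error only, not the spread between animals or libraries.

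After filtering, 879 injured and 4159 uninjured cells were kept, with a median of 6816 and 3343 gene UMIs (unique molecular identifiers, 1 per captured transcript). The libraries shared 7 barcodes, 3 of them among the kept cells. Although the labels give both sexes for each condition, 2770 uninjured cells were scored male and 2 female, against 315 and 250 injured cells, so condition and sex cannot be told apart in the female cells. Classes were named from marker genes, with the galectin rows left out of the clustering. Astrocyte-like cells numbered 413 injured and 2903 uninjured (47.0% and 69.8% of kept cells), and their 10 astrocyte markers summed to 11895 and 13787 CPM (UMIs per 1000000 gene UMIs of the class). The sort for tdTomato thus did not hold astrocyte-like cells alone. There were also 126 injured and 31 uninjured microglia-like, 144 and 31 ependymal-like, 70 and 26 endothelial-like, 43 and 95 fibroblast-like and 41 and 14 OPC-like cells (oligodendrocyte precursors) and 13 and 3 mural-like cells of the vessel wall, and only classes with at least 20 cells in both conditions were compared between conditions. Injured and uninjured astrocyte-like cells fell mostly into different clusters, since 1 cluster held 76.5% of the injured and 0.413% of the uninjured cells. This cluster, led by Gfap, Lcn2 and Vgf, is called the Gfap-led cluster below. A further 1056 uninjured and 29 injured cells with astrocyte markers but with neuronal genes among their leading genes stayed unnamed.

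On GRCm38 (mm10), GENCODE M21 places all 4 genes as protein coding, Lgals1 on chromosome 15 from 78926725 to 78930465 on the plus strand, Lgals3 on chromosome 14 from 47367751 to 47386160 on the plus strand, Lgals8 on chromosome 13 from 12439415 to 12464944 on the minus strand, and Lgals9 on chromosome 11 from 78962974 to 78984946 on the minus strand. RefSeq promoter windows of 250 bases before the transcript start (GRCm38.p6) matched 3 of the 4 members, Lgals3, Lgals8 and Lgals9. The windows were searched on both strands for 5 motifs, the AP-1 site TGANTCA, the STAT site TTCNNNGAA, the interferon response element GAAANNGAA, the GC box GGGCGG and the TATA box TATAAA. All 3 RefSeq starts lie inside the longer GENCODE spans. Of 32851 promoter windows in the same table, 6.75%, 7.02%, 7.13%, 32.7% and 12.4% held these motifs in that order. The windows of Lgals3 and Lgals9, which are printed here because they were the ones that held a match, lie at chr14:47373610-47373859 on the plus strand and chr11:78984925-78985174 on the minus strand. Capitals mark the match.
Lgals3: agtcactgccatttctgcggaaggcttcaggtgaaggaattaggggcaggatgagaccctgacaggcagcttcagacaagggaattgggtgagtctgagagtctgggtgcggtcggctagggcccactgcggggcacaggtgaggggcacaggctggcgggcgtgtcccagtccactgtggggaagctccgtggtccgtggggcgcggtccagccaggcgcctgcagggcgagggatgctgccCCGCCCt
Lgals9: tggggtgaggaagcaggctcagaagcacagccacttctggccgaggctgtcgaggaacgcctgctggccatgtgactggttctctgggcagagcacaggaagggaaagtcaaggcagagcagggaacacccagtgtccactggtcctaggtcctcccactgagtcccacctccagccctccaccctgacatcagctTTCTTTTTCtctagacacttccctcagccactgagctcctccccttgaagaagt
In Lgals3 the match was the GC box on the other strand, CCGCCC, starting 7 bases before the start, and 66.0% of the window was G or C against a median of 52.4% over all windows. In Lgals9 it was the interferon response element on the other strand, TTCTTTTTC, starting 54 bases before the start, in a window with 58.4% G or C. The Lgals8 window held none of the 5 motifs and was 49.2% G or C, and none of the 3 windows held the AP-1, STAT or TATA letters. A match of letters is a description and not a bound site, and the lack of one says only that these letters are not in this window.

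Lgals1 was 54.6-fold higher in injured than in uninjured astrocyte-like cells (interval 47.8 to 62.7), the 21st highest log2 ratio (5.71, with 1 CPM added to both sides) among the 4243 genes that reached 50 CPM in either library. Its level was 1206 CPM in the injured cells (2708 UMIs in 271 of 413 cells) and 22.1 CPM in the uninjured cells (233 UMIs in 206 of 2903 cells). The UMIs were spread over many injured cells, with 34 cells holding 50% of them and the highest cell 6.02%. A UMI was found in 65.6% of injured astrocyte-like cells (60.8% to 70.2%) and in 7.1% of uninjured ones (6.19% to 8.09%), at median depths of 3683 and 3245 UMIs. When every cell was thinned to 1000 gene UMIs, the shares were 47.1% of 378 and 2.08% of 2836 cells. In injured endothelial-like cells, the class with the lowest Lgals1 level in that library, the share was 30.0% at a median of 7972 UMIs and 5.97% after thinning, so that the astrocyte-like share at equal depth lay above it.

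Most of the Lgals1 signal of injured astrocyte-like cells lay in the Gfap-led cluster, where 316 cells held 2690 of the 2708 UMIs (1398 CPM). The 12 uninjured cells of that cluster had 77.3 CPM, from 6 UMIs. In the astrocyte-like cluster led by Grm8, Hes5 and Agt, the level was 41.9 CPM in 29 injured cells (7 UMIs) and 41.3 CPM in 366 uninjured cells (61 UMIs), a difference well within the counting intervals. In the astrocyte-like cluster with the highest share of mitochondrial UMIs, it was 101 CPM in 57 injured cells (11 UMIs) and 13.1 CPM in 740 uninjured cells (22 UMIs). The remaining injured astrocyte-like cells, 7 and 4 in the other two clusters, had no Lgals1 UMI, which at such cell numbers limits little. Injured and uninjured levels thus did not differ beyond counting error in the Grm8-led cluster, while the Gfap-led and the mitochondria-rich clusters were higher in the injured library.

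Other injured classes also had more Lgals1 than their uninjured counterparts, with lower ratios than astrocyte-like cells but, in ependymal-like cells, an overlapping interval. In fibroblast-like cells it was 2465 CPM injured (1778 UMIs in 42 of 43 cells) and 359 CPM uninjured (118 UMIs in 55 of 95 cells), a ratio of 6.86 (5.69 to 8.34). All 43 injured fibroblast-like cells fell into 1 cluster, led by Bgn, Col3a1 and Lum, and its 47 uninjured cells had 521 CPM, while the other 48 uninjured cells, in a cluster led by Apod, Gsn and Dcn, had 253 CPM. In ependymal-like cells, the ciliated lining of the central canal, the level was 176 CPM injured (298 UMIs) and 12.6 CPM uninjured (2 UMIs), a ratio of 13.9 with a wide interval (3.82 to 116).
In microglia-like cells the ratio was 3.92 (2.58 to 6.28), from 738 CPM injured (1395 UMIs) and 188 CPM uninjured (22 UMIs), but 14 of these 22 UMIs came from 1 of the 31 uninjured cells. Without that cell, described below for Lgals3, the uninjured level was 78.3 CPM (8 UMIs) and the ratio 9.42 (4.77 to 21.9). In endothelial-like cells the values were 97.5 CPM (73 UMIs, of which 29 in 1 cell) and 28.3 CPM (3 UMIs), with a ratio of 3.44 (1.13 to 17.1).

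The order of Lgals1 in the injured library ran from fibroblast-like over astrocyte-like cells to OPC-like (744 CPM, 721 UMIs) and microglia-like cells and then to ependymal-like and endothelial-like cells. The order holds the classes with at least 20 injured cells, and the 13 mural-like cells, left out of it, had 1001 CPM (85 UMIs in 11 cells, 800 to 1238 CPM). Of these neighbours, OPC-like and microglia-like cells did not differ beyond counting error, with a ratio of 1.01 (0.920 to 1.10). Astrocyte-like cells had 1.62 times the level of OPC-like cells (1.49 to 1.76). In the uninjured library fibroblast-like cells came first and microglia-like cells next (1.91 times lower, 1.20 to 3.16, with 14 of their 22 UMIs in the cell named above), and endothelial-like, astrocyte-like and ependymal-like cells, at 28.3, 22.1 and 12.6 CPM, did not differ beyond counting error. Astrocyte-like cells thus stood next to the top of the order in the injured library and among the lowest levels in the uninjured library.

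**Figure D1:**
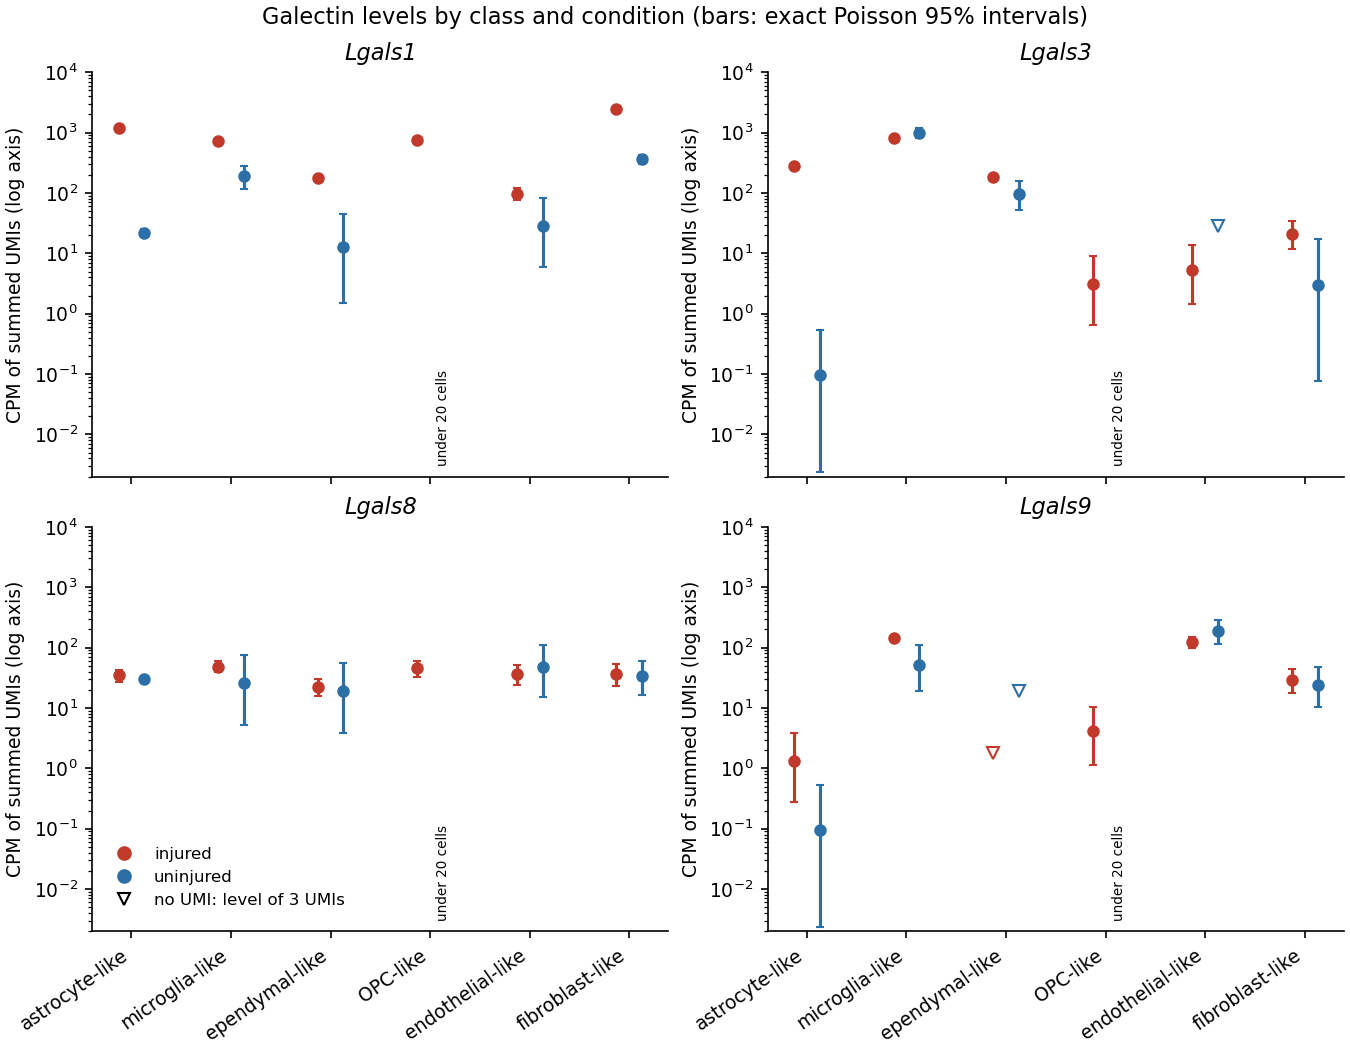
Level of each galectin as CPM of summed UMIs on a log axis, by class, in the injured (red) and uninjured (blue) library, with exact Poisson 95% intervals. Open triangles mark the level of 3 UMIs in classes with no UMI, and the 14 uninjured OPC-like cells are not drawn. Lgals1 lay higher in the injured library in every class compared, Lgals8 stayed between 18.9 and 48.7 CPM, and Lgals3 and Lgals9 differed by class.

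Lgals3 was nearly absent from uninjured astrocyte-like cells and present in a minority of the injured ones. The uninjured cells had 1 UMI in 2903 cells (0.0947 CPM), and the injured cells had 621 UMIs in 68 of 413 cells (276 CPM). The ratio of 2919 has a very wide counting interval (522 to 115459) because it rests on that 1 UMI, and the log2 ratio of 7.99 with 1 CPM added was the 2nd highest of the 4243 genes. A UMI was found in 16.5% of injured astrocyte-like cells (13% to 20.4%), and in 8.99% of 378 cells after thinning (6.31% to 12.3%). In injured OPC-like and endothelial-like cells the unthinned shares were 7.32% and 5.71%, at median depths of 22050 and 7972 UMIs, and after thinning no cell of either class had a UMI. The astrocyte-like share was thus higher than in both classes although its cells were shallower, but the unthinned intervals overlapped. They were 1.54% to 19.9% for OPC-like and 1.58% to 14.0% for endothelial-like cells. After thinning, the exact upper limits were 8.60% for 41 OPC-like cells and 5.36% for 67 endothelial-like cells. Only the endothelial-like limit lay below the astrocyte-like interval.

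The Lgals3 UMIs of injured astrocyte-like cells were held by few cells. All 621 lay in the Gfap-led cluster (323 CPM), in 68 of its 316 cells. The other 4 astrocyte-like clusters had none, with 97 injured cells between them. Within the Gfap-led cluster the highest cell held 191 UMIs (30.8%), the 2 highest held 44.1% and 4 cells held 50% or more. Without the highest cell the level was 195 CPM (430 UMIs in 67 of 412 cells).
The 4 highest cells had 41326, 13076, 11730 and 4813 gene UMIs, and their Lgals3 UMIs numbered 191, 83, 34 and 29. They expressed 10, 10, 9 and 4 of the 10 astrocyte markers, with 121, 32, 62 and 9 UMIs in all, and Gfap at 105, 27, 83 and 27 UMIs. Against this, the 12 microglial reference genes gave 3, 0, 0 and 1 UMIs in them, and Gpnmb, a glycoprotein gene of phagocytic macrophages, gave none. Fibroblast markers gave 17, 1, 0 and 0 UMIs in these cells and Schwann cell markers 17, 3, 3 and 2. As a share of gene UMIs, astrocyte markers lay below the class value of 11895 CPM in all 4 cells. The cells that carried most of the Lgals3 signal had astrocyte markers and almost no microglial UMIs. The source of the Lgals3 transcripts was not tested.

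Microglia-like cells had the highest Lgals3 level of the injured library, 827 CPM (1564 UMIs in 82 of 126 cells), which was 2.99 times the astrocyte-like level (2.73 to 3.29). Of the injured cells, 9 held 50% of the UMIs, and 32.2% of 121 cells had a UMI after thinning. The uninjured microglia-like level was 1001 CPM, but all 117 UMIs came from 1 of 31 cells. This cell, with 14791 gene UMIs, also held 339 UMIs of Spp1 (osteopontin), 62 of Gpnmb, 172 of Lyz2 and 11 of Ms4a7. It held 5 UMIs of F13a1 and 1 of Chil3, but none of the macrophage genes Ccr2, Mrc1, Cd163, Ly6c2, Plac8 and Arg1. The 6 homeostatic microglia genes P2ry12, Tmem119, Sall1, Siglech, Gpr34 and P2ry13 gave no UMI in it. The other 30 uninjured cells had 85 P2ry12 UMIs and no UMI of Lgals3 or Gpnmb. Macrophage genes were also found in these 30 cells, with 50 UMIs of Mrc1, 32 of F13a1, 14 of Ms4a7, 6 of Spp1, 3 of Cd163 and 2 of Plac8.
The ratio of conditions in microglia-like cells depended on that cell. With it, the ratio was 0.827 (0.685 to 1.01), and without it Lgals3 was at least 28.2-fold higher in injured cells, with the uninjured group set at 3 counts, and the lower limit of the exact interval was 22.9.

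Within injured microglia-like cells, Lgals3 and Lgals1 were higher in the cells without homeostatic genes. The 73 cells with no UMI of the 6 homeostatic genes after thinning had 1272 CPM of Lgals3 and 1022 CPM of Lgals1, and the 48 cells with one had 101 and 275 CPM. Likewise the 86 cells with a UMI of the macrophage list (11 genes such as Ccr2, Arg1 and Spp1) had 1097 CPM of Lgals3 and 920 CPM of Lgals1, against 89.7 and 239 CPM in the 35 cells without one. Median depths were alike, between 12968 and 15045.5 UMIs in these 4 groups of cells. Resident microglia and macrophages from the blood were not separated by these lists.

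Ependymal-like cells were the class in which Lgals3 was found in both conditions in many cells. They had 183 CPM injured (310 UMIs in 90 of 144 cells) and 94.6 CPM uninjured (15 UMIs in 11 of 31 cells), a ratio of 1.93 (1.15 to 3.50). The shares of 62.5% and 35.5% were measured at median depths of 10505 and 4362 UMIs. After thinning they were 10.5% of 143 cells (5.99% to 16.7%) and 9.68% of 31 cells (2.04% to 25.8%). At equal depth no difference in the share was detectable with so few uninjured cells. The other injured classes had little Lgals3, with 20.8 CPM in fibroblast-like cells, where 8 of 15 UMIs were in 1 cell (1 UMI in 95 uninjured cells), and 4 UMIs in endothelial-like and 3 UMIs in OPC-like cells. In the injured order, microglia-like, astrocyte-like, ependymal-like and fibroblast-like cells each differed from the next beyond counting error, and endothelial-like and OPC-like cells did not. The step from astrocyte-like to ependymal-like cells, a ratio of 1.51 (1.32 to 1.74), leaned on few cells. Without the highest cell of each class the levels were 195 CPM (177 to 214) and 161 CPM (142 to 181), with intervals that overlapped. After thinning, the share of cells with a UMI was 8.99% in astrocyte-like and 10.5% in ependymal-like cells, so the order of these classes is not settled.

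**Figure D2:**
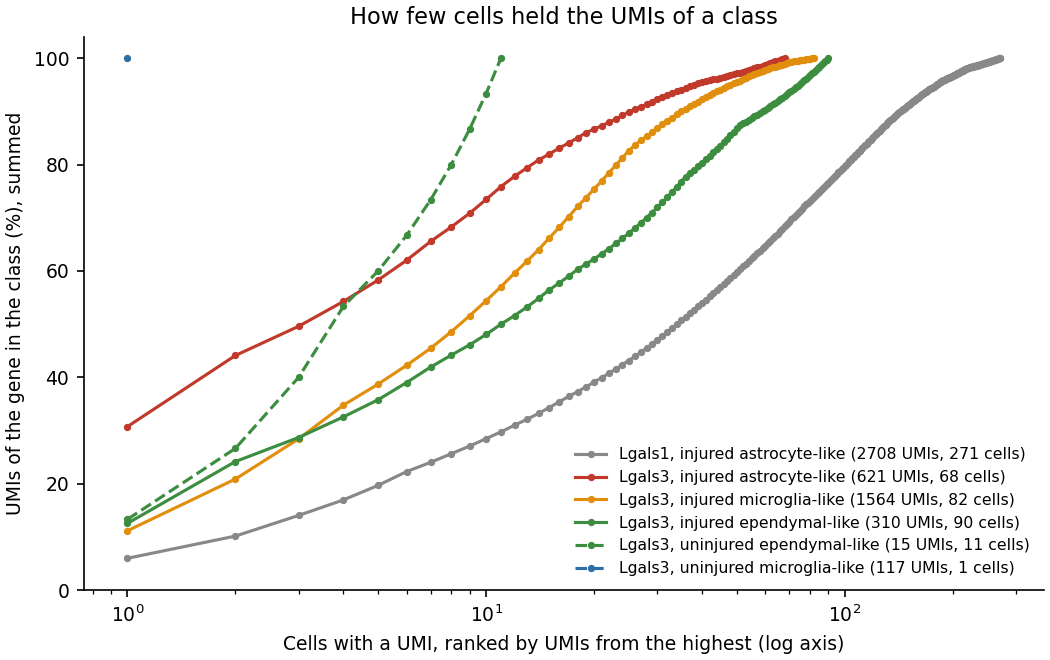
Cumulative percent of a gene's UMIs in a class (y axis) against the cells with a UMI, ranked from the highest (x axis, log scale), for Lgals3 in 3 classes and for Lgals1 in injured astrocyte-like cells. Of the injured curves, Lgals3 in astrocyte-like cells starts highest, at 30.8% in 1 cell, and all 117 uninjured microglia-like UMIs sit in a single cell.

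The level of Lgals1 and Lgals3 in injured astrocyte-like cells was set beside that of 12 microglial reference genes, which mark microglia and macrophages and not astrocytes. All but Laptm5, Cd68 and Lyz2 are also among the markers that named the classes. Unlike the galectins, the 12 genes were not left out of the clustering. Their low level in astrocyte-like cells is therefore not independent of how the classes were made, and the source of the galectin transcripts was not tested. In injured astrocyte-like cells the 12 genes summed to 101.5 CPM, which was 0.266% of their 38125 CPM in injured microglia-like cells. Csf1r had no UMI, and the highest single gene, the lysosomal protein Cd68, reached 0.889% (0.497% to 1.47%). Lgals3 reached 33.4% of its microglia-like level (30.4% to 36.7%), Lgals8 71.3% (52.1% to 97.5%) and Lgals1 163% (153% to 174%). Lgals9 reached 0.925% (0.190% to 2.73%), just above Cd68, with an interval that overlapped those of the microglial genes. With the 307 injured and 2841 uninjured astrocyte-like cells that had no UMI of any of the 12 genes, the Lgals3 log2 ratio was 7.51 and the share of injured cells with a UMI 12.7%. In uninjured astrocyte-like cells the 12 genes summed to 8.53 CPM, or 0.0376% of the uninjured microglia-like level.

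**Figure D3:**
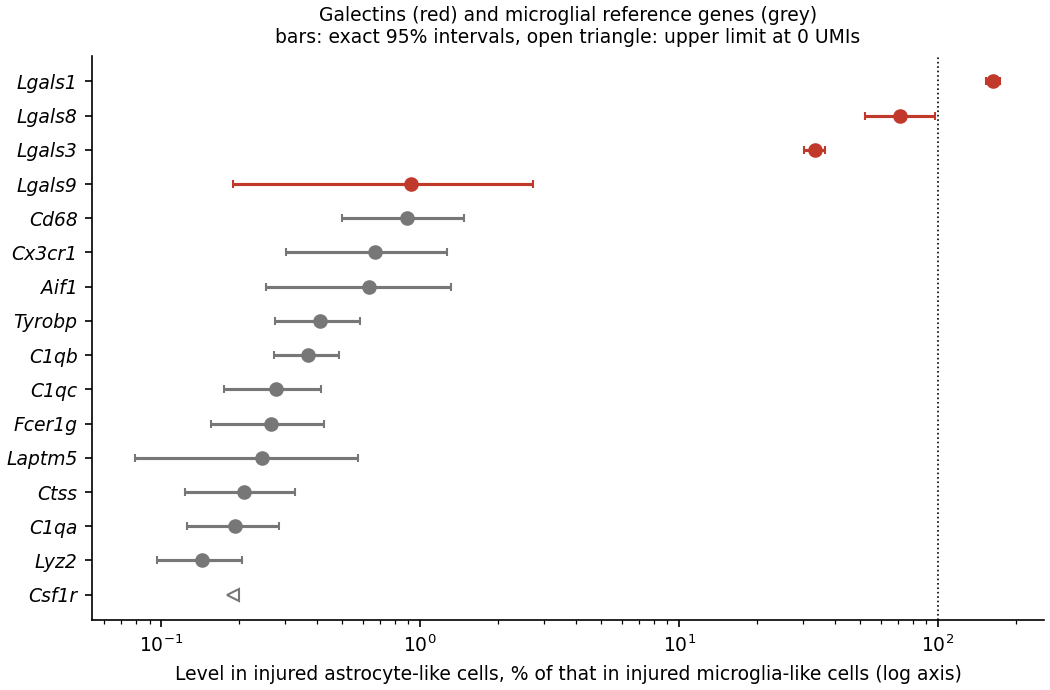
Level of each gene in injured astrocyte-like cells as a percent of its level in injured microglia-like cells (x axis, log scale), with exact 95% intervals, for the 4 galectins (red) and the 12 microglial reference genes (grey). The reference genes lie at or below 0.889% and Lgals9 at 0.925% with an overlapping interval, while Lgals3, Lgals8 and Lgals1 lie between 33.4% and 163%. Most of the reference genes also named the classes, and unlike the galectins they were not left out of the clustering.

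Among injured astrocyte-like cells, Lgals1 was found in a larger share of the cells with Lgals3 than of those without it. After thinning, 29 of 378 cells had both, 149 Lgals1 alone, 5 Lgals3 alone and 195 neither. Lgals1 was found in 85.3% of the 34 cells with Lgals3 (68.9% to 95%) and in 43.3% of the 344 cells without it (38.0% to 48.7%). All Lgals3 UMIs of injured astrocyte-like cells lay in the Gfap-led cluster. The cells without Lgals3 include those of the other astrocyte-like clusters, which held few Lgals1 UMIs. Cluster and co-detection are therefore not separated here. In injured microglia-like cells the shares were 51.3% of 39 cells (34.8% to 67.6%) and 34.1% of 82 cells (24.0% to 45.4%), and these intervals overlapped.
Astrocyte-like cells with the acute reactive genes Lcn2 or Timp1 had more of both galectins. Lcn2 and Timp1 are also among the leading genes of the Gfap-led cluster, and this split was not made within that cluster. The 89 injured cells with a UMI of either gene after thinning had 1787 CPM of Lgals1 and 766 CPM of Lgals3, the latter 452 CPM without the highest cell. The 289 cells with neither had 1012 and 115 CPM. At equal depth, 74.2% and 38.8% of the cells with and without Lcn2 or Timp1 had a Lgals1 UMI, and 19.1% (11.5% to 28.8%) and 5.88% (3.46% to 9.25%) a Lgals3 UMI. Lgals8 was at 32.8 and 35.3 CPM in these cells. Of the injured astrocyte-like cells, 73 were scored female and 126 male. Lgals1 was at 866 and 835 CPM in them, and Lgals3 at 382 and 142 CPM, but 191 of the 247 female UMIs were in the highest cell and without it the female level was 92.5 CPM. The scored cells were deeper than the class, at medians of 6676 and 6882.5 UMIs against 3683. Lgals1 in both sexes lay below the class level of 1206 CPM, so the unscored cells held more of it per UMI.

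**Figure D4:**
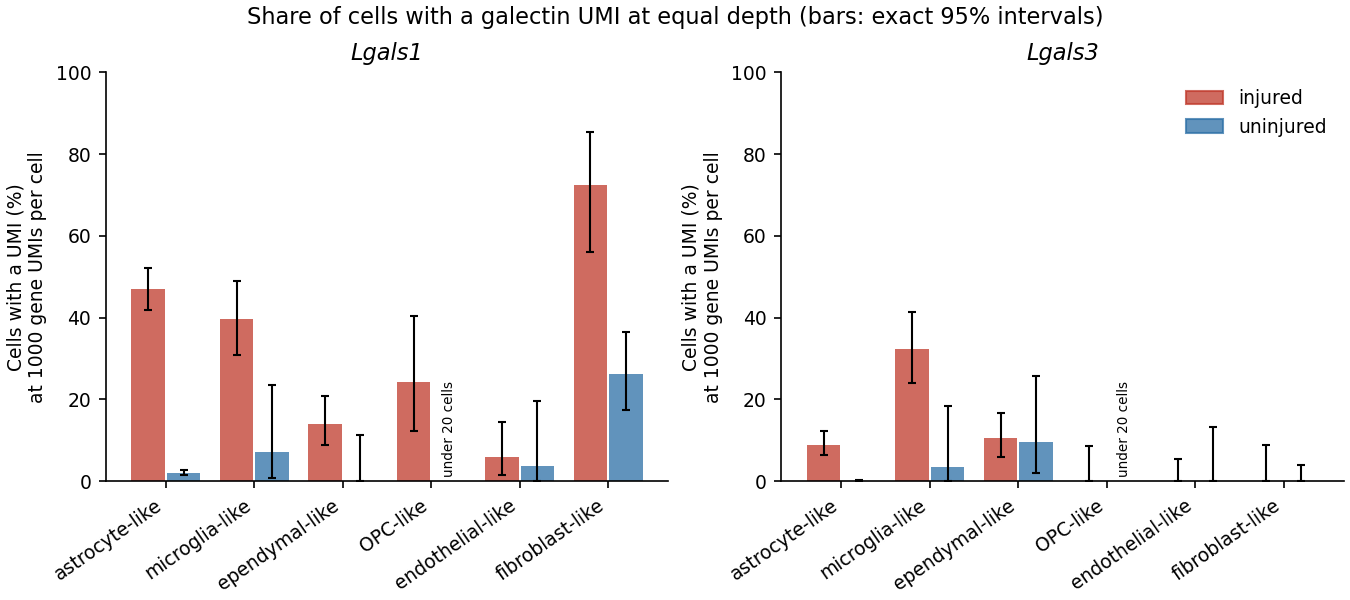
Percent of cells with a Lgals1 (left) or Lgals3 (right) UMI after thinning every cell to 1000 gene UMIs, by class, in the injured (red) and uninjured (blue) library, with exact 95% intervals; the 14 uninjured OPC-like cells are not drawn. In astrocyte-like cells the shares were 47.1% and 2.08% for Lgals1 and 8.99% and 0.0353% for Lgals3.

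Lgals8, whose protein marks damaged endosomes for autophagy, differed little between conditions, and less between classes than the other members. In astrocyte-like cells it was at 34.7 CPM injured (78 UMIs in 67 of 413 cells) and 30.0 CPM uninjured (317 UMIs in 280 of 2903 cells), a ratio of 1.16 (0.891 to 1.49). Shares of cells with a UMI were 16.2% and 9.65%, and 3.44% (1.84% to 5.81%) and 2.75% (2.18% to 3.42%) after thinning. No named class with at least 20 cells lacked it. Ependymal-like cells, the injured class of that size with the lowest level, had 1.40% of cells with a UMI after thinning. The 6 injured classes lay between 22.4 CPM in ependymal-like and 48.7 CPM in microglia-like cells. Of the neighbours in that order, only astrocyte-like and ependymal-like cells differed beyond counting error, by a ratio of 1.55 (1.04 to 2.35). Classes further apart also differed. Microglia-like cells had 1.40 times the astrocyte-like level (1.03 to 1.92), and their interval (39.2 to 59.7 CPM) lay above that of ependymal-like cells (15.9 to 30.8 CPM). In the uninjured library no neighbours did, and the other 4 classes compared between conditions had 3 to 11 uninjured Lgals8 UMIs, with ratio intervals that all included 1.

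Lgals9, a galectin that binds the receptor encoded by Havcr2 on T cells and myeloid cells, was found in microglia-like and endothelial-like cells and hardly in astrocyte-like cells. Injured microglia-like cells had 144 CPM (273 UMIs in 83 of 126 cells) and uninjured ones 51.3 CPM (6 UMIs in 5 of 31 cells), a ratio of 2.81 (1.28 to 7.74). Endothelial-like cells had 123 CPM injured (92 UMIs in 41 of 70 cells) and 189 CPM uninjured (20 UMIs in 15 of 26 cells), a ratio of 0.651 (0.398 to 1.12) that does not fix a direction. The microglia-like and endothelial-like levels of the injured library did not differ beyond counting error, with a ratio of 1.18 (0.925 to 1.51).
Fibroblast-like cells had 29.1 CPM injured and 24.4 CPM uninjured, from 21 and 8 UMIs. Astrocyte-like cells had 3 UMIs in 413 injured and 1 UMI in 2903 uninjured cells, and OPC-like cells 4 UMIs in 41 injured cells. In ependymal-like cells no UMI was found in 144 injured and 31 uninjured cells, which allows a share of cells with a UMI of up to 2.08% and 9.68%. Unlike Lgals3 and Lgals1, Lgals9 was alike in the injured microglia-like cells with and without the macrophage list, at 143 and 150 CPM. It was 118 CPM in those with a homeostatic gene and 161 CPM in those without.

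Among the genes that reached 50 CPM, a level at least 4-fold higher in injured astrocyte-like cells was found for both ranked members, Lgals1 and Lgals3, and for 5.28% of all 4243 genes, with 1.06% at least 4-fold lower. Because the members were chosen on this contrast, nothing is read from that count. In microglia-like cells 0 of 3 ranked members were past 4-fold, at a background of 2.51% higher and 4.28% lower of 4230 genes, and the ratio of Lgals1 was just under it. This count rests on the 1 uninjured cell described above, since without it Lgals1 was 9.42-fold and Lgals3 at least 28.2-fold higher. In ependymal-like cells Lgals1 was past 4-fold and Lgals3 was not (1.59% higher and 1.65% lower of 4908 genes). In fibroblast-like cells the single ranked member, Lgals1, was higher (2.55% higher and 3.76% lower of 4356 genes). In endothelial-like cells 0 of 2 ranked members were past 4-fold (1.59% higher and 2.09% lower of 4406 genes).

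The other galectin genes did not share the pattern in astrocyte-like cells. Of 7 listed, 6 were among the features, and only Lgalsl, which encodes a galectin-related protein that does not bind lactose, was ranked, at 53.4 CPM injured and 55.7 CPM uninjured (ratio 0.959, 0.781 to 1.17). Lgals2, Lgals4 and the lens gene Grifin had 3.56 and 1.89, 5.34 and 4.17, and 6.68 and 5.30 CPM in injured and uninjured cells, and Lgals7 and Lgals12 had no UMI. Reads of Lgals4 may be shared with a near-identical copy, so its level is uncertain.

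Galectin counter-receptors, the glycoproteins that galectins are known to bind, were mostly present in both conditions. Of 24 listed genes 14 were ranked in astrocyte-like cells, of which 1 was at least 4-fold higher, 0 were lower and 13 neither, with a median log2 ratio of 0.37 against -0.08 over all ranked genes. The higher one was Cd44, the hyaluronan receptor, at 179 CPM injured and 5.40 CPM uninjured (33.1-fold, 25.0 to 44.4), which is also in the reactive reference list. The most abundant were the lysosomal membrane proteins Lamp1 (792 and 360 CPM) and Lamp2 (343 and 220 CPM), the lactate transporter chaperone Bsg (536 and 502 CPM), the adhesion molecule Alcam (240 and 362 CPM), the amino acid transporter chain Slc3a2 (207 and 307 CPM) and the growth factor receptor Egfr (120 and 242 CPM). Levels of these 6 differed by less than 4-fold, Lamp1 and Lamp2 being higher and Alcam, Slc3a2 and Egfr lower in injured cells.
In microglia-like cells 3 of 20 ranked counter-receptors were at least 4-fold higher in the injured library, at a background of 2.51% of 4230 genes. They were Lgals3bp, a secreted galectin-3 ligand (98.4 and 17.1 CPM), fibronectin Fn1 (250.3 and 8.55 CPM) and Alcam (219 and 51.3 CPM), from 2, 1 and 6 uninjured UMIs. Havcr2 was at 197 and 180 CPM in microglia-like cells (ratio 1.10, 0.708 to 1.80). These uninjured levels include the 1 cell described above for Lgals3, and none is given without it. In fibroblast-like cells Cd44 was higher (119 and 27.4 CPM) and Egfr lower (34.7 and 231 CPM) among 16 ranked.

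Of 16 genes for enzymes that build or cap galectin ligands, 3 were ranked in astrocyte-like cells and 0 of these were past 4-fold, with a median log2 ratio of -0.36. They were the sialyltransferases St3gal4 (139 and 245 CPM) and St3gal3 (53.0 and 68.1 CPM) and the branching enzyme Mgat5 (61.0 and 63.9 CPM). Among the genes below 50 CPM, Mgat2 was at 35.2 and 24.5 CPM, Mgat1 at 34.3 and 22.5 CPM and St6gal1, whose sialic acid blocks galectin-1 binding, at 29.8 and 27.9 CPM. Gcnt2, an enzyme that branches poly-N-acetyllactosamine chains, was named after its values were seen. It was at 9.35 CPM injured (21 UMIs) and 0.189 CPM uninjured (2 UMIs), a ratio of 49.3 (12.1 to 434) at levels too low to be ranked.
Genes of the response to damaged endomembranes likewise had 0 of 6 ranked genes past 4-fold, of 12 listed, with a median log2 ratio of 0.62. The autophagy receptor Sqstm1 was at 151 and 71.0 CPM (ratio 2.13, 1.87 to 2.42) and Tax1bp1, another such receptor, at 176 and 162 CPM. Gabarapl2 (152 and 101 CPM) and the membrane repair genes Chmp4b (130.0 and 73.6 CPM), Tsg101 (55.2 and 43.3 CPM) and Pdcd6ip (52.1 and 32.9 CPM) also lay higher in injured cells.
By contrast, all 6 genes of the reactive astrocyte reference were at least 4-fold higher in injured astrocyte-like cells, with a median log2 ratio of 6.52, among them Gfap (2709 and 62.4 CPM), Vim (1830 and 8.34 CPM), Serpina3n (339 and 8.24 CPM) and Timp1 (312 and 0.0947 CPM). The ratios of Lgals1 and Lgals3 lay among those of these 6 genes, and the medians of the 3 pathway lists lay between -0.36 and 0.62. The members and lists were chosen with earlier results of these data known, so nothing is read from this placement. Of the macrophage list, Spp1 alone was ranked in astrocyte-like cells, at 107 and 2.56 CPM.

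**Figure D5:**
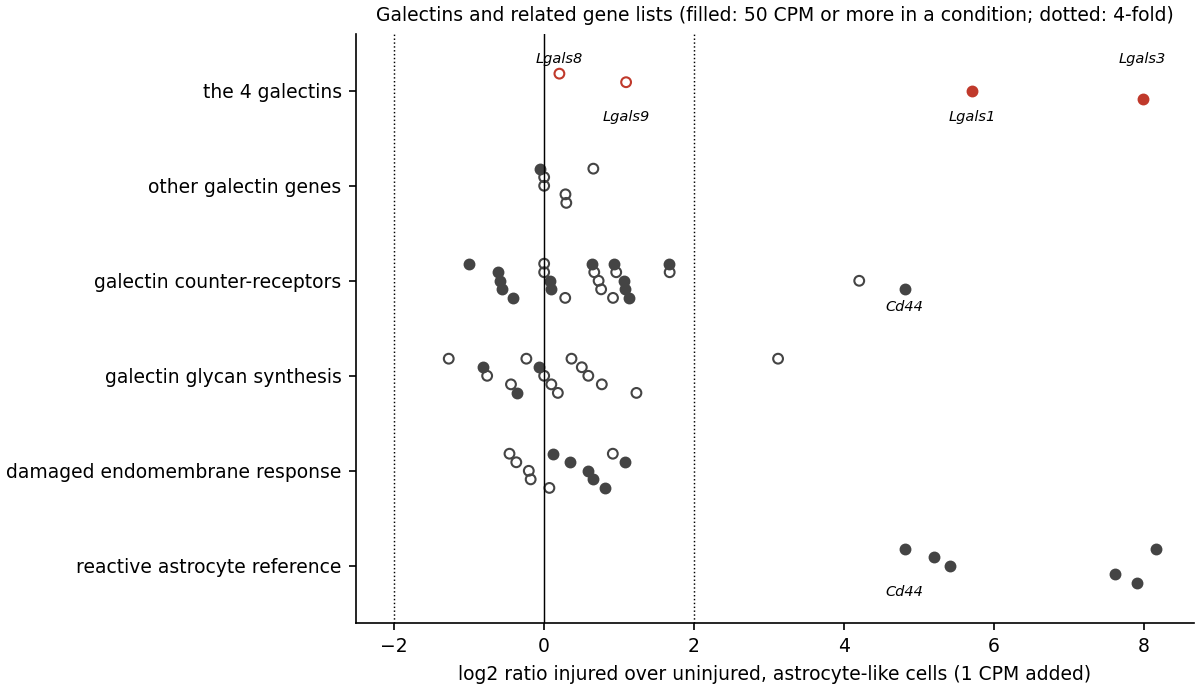
Log2 ratio of injured over uninjured astrocyte-like cells with 1 CPM added (x axis) for the 4 galectins and 5 gene lists (rows); filled points reached 50 CPM in a condition, open points did not, and dotted lines mark 4-fold. Lgals1 at 5.71 and Lgals3 at 7.99 lie in the range of the reactive reference genes, and outside that list Cd44 is the single filled point of a list past 4-fold. Members and lists were chosen with earlier results of these data known, so nothing is read from where they lie.

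Genes with the most similar pattern were sought over 11 profiles, the classes with at least 20 cells in each library, by Pearson's r of log2(CPM + 1) among 8697 genes that reached 50 CPM in a profile. The profiles share 2 libraries and differ in depth, so these values are descriptions. Lgals9 had the closest, Fxyd5 (r = 0.98), Ly6e (0.98), Def6 (0.97), Ifnar2 (0.96) and Tgm2 (0.96). Those of Lgals1 were Eif2s2 (0.94), AI506816 (0.94), Ilk (0.92), 1110038B12Rik (0.90) and Nme1 (0.87), and those of Lgals8 included Atp6v0e (0.86), Mrpl32 (0.85), Tmem14c (0.85) and 2410004B18Rik (0.84).
For Lgals3 the result turned on the 1 uninjured microglia-like cell. With it, Chmp4b (0.93), Ttc7 (0.87), Dapp1 (0.86), Noc2l (0.85) and Ntpcr (0.84) came first. Without it, Cuta (0.90), Cox4i1 (0.86), Gpx3 (0.83), Hspe1 (0.79) and Bola2 (0.77) did, and Chmp4b was at 0.52. The members were little alike, with r between -0.33 for Lgals3 and Lgals8 and 0.64 for Lgals8 and Lgals9.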

How the data were processed

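Gene expression of tdTomato-sorted spinal cord cells was analysed in 1 injured and 1 uninjured library, and the 2 barcode libraries and the 23 enhancer features were not used here. The deposited matrices hold raw UMI counts per gene and cell, made by the authors with Cell Ranger (version 7.1.0 per the file headers, 8.0.1 and mm10 in the submitters' processing notes), without normalisation and with cells called before deposit.

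Following the filter that the study states, cells above 500 and below 50000 gene UMIs were retained. This removed 40 of 919 injured and 0 of 4159 uninjured barcodes. The kept cells had 8499672 and 15543460 gene UMIs. Clustering left out the galectin rows and ran on log values after scaling to 10000 counts per cell, with 2000 variable genes, 15 principal components, 15 nearest neighbours and a Leiden resolution of 0.5, in scanpy 1.11.5 with igraph 0.11.9 under Python 3.11.15. Of 14 clusters, 12 were named in 7 classes by the highest mean score of 12 marker lists (above 0.2), with at least 3 markers found in 10% of cells and no other class with more markers among the 10 leading genes. No doublets were removed. Scrublet marked 2 of 5038 cells, too few for the caller to have worked.

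Values are CPM of summed UMIs with exact Poisson intervals. Ratios have exact conditional binomial intervals and shares exact Clopper-Pearson ones. For shares at equal depth, cells were thinned to 1000 gene UMIs in 1 draw, which left out 35 injured and 67 uninjured astrocyte-like cells. Where a group had no UMI, 3 counts over the group were taken as the limit. Genes that reached 50 CPM in either condition were ranked, and 4-fold was taken as the threshold. A cell with Xist but none of the Y-linked genes Ddx3y, Eif2s3y, Kdm5d and Uty was scored female, and one with any of these but no Xist male.

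Named genes are the members, up to 6 genes per list with the highest CPM in astrocyte-like cells of either condition, the genes past 4-fold, the reference lists and the 5 genes most like each member, of which 1 is not reported here. The highest cells and the Lcn2 or Timp1, macrophage and sex groups were described after the values were seen. The members, lists and markers were chosen with earlier results of these data known.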

Additional observations from a re-analysis of the deposited data

Results flagged for a closer look

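The 40 injured cells that had been left out for reaching 50000 gene UMIs held galectin UMIs, a signal outside the comparisons above. Lgals1 was at 3224 CPM (10698 UMIs in 40 of 40 cells), Lgals3 at 15.4 CPM (51 UMIs in 14 cells), Lgals8 at 26.8 CPM (89 UMIs in 34 cells) and Lgals9 at 21.7 CPM (72 UMIs in 26 cells). In 38 of these cells the fibroblast markers gave the most UMIs of the 12 marker lists, with 8670 CPM summed over all 40 cells, in 1 cell the astrocyte markers did and in 1 the microglial markers did. Gfap was at 36.8 CPM. The levels of all 4 galectins in these cells may be set beside those of the injured fibroblast-like cells, which were 2465, 20.8, 36.0 and 29.1 CPM for Lgals1, Lgals3, Lgals8 and Lgals9. With no filter on cells, the Lgals1 log2 ratio in fibroblast-like cells was 3.13 in place of 2.78. No uninjured cell was removed, so these values have no counterpart in the other condition.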

How the results depend on the processing

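Values were recomputed under 17 alternative settings, of which 4, named below, were chosen after seeing the data. No paired analysis was possible because there was 1 library in each condition and the result comes from no test. Of 168 values for 12 results (the log2 ratio of conditions in astrocyte-like cells, the log2 ratio of microglia-like over astrocyte-like cells of the injured library, and the share of injured astrocyte-like cells with a UMI), 139 stayed within the counting interval of the reported value, 29 moved outside it and 0 changed sign. For the log2 ratios this interval was built from the Poisson limits of both groups with 1 CPM added, and not from the exact ratio intervals given above. It can be wider, so a value counted as within it may lie outside the exact interval. The cause of the moves was not tested, except where the setting itself changes the scale. With astrocytes chosen by an Aldh1l1 UMI alone, the Lgals1 ratio of conditions was 5.05 and the Lgals8 share 21.8%. In male cells alone the ratio of conditions was 5.22 for Lgals1 and 6.99 for Lgals3, the ratio of classes -0.57 for Lgals1 and 2.64 for Lgals3, and the Lgals8 share 25.4%. The male astrocyte-like cells of the injured library were deeper than their class and had less Lgals1 per UMI. Without the highest 5% of Scrublet scores the Lgals3 ratios were 7.39 and 2.16. Without cells holding a microglial reference UMI the Lgals3 ratio of classes was 2.05 and its share 12.7%. With 10 CPM added, which lowers any ratio of low counts, the ratio of conditions was 5.24 for Lgals1 and 4.83 for Lgals3, and the ratio of classes 3.77 for Lgals9. As a mean over cells the ratio of classes was -1.02 for Lgals1 and the ratio of conditions 2.30 for Lgals9. Shares of Lgals1, Lgals3 and Lgals8 were 47.1%, 8.99% and 3.44% after thinning and 53.0%, 9.44% and 2.18% when a cell needed 2 UMIs. With 3 UMIs they were 45.0%, 7.51% and 0.484%, and that of Lgals9 was 0.0%. Of the added settings, counting the unnamed clusters as astrocyte-like gave a Lgals1 ratio of 5.45, leaving out the cluster rich in mitochondrial UMIs a Lgals1 share of 73.3%, and leaving out the highest cell of each class and library a Lgals3 ratio of classes of 1.93. Leaving out the astrocyte-like cluster led by hemoglobin genes moved none of the 12 results. Genes at least 4-fold higher in astrocyte-like cells numbered 224 (156 to 250 over the settings) and lower ones 45, with 26 in male cells alone and 22 with 10 CPM added. In other classes 128 of 132 ratios stayed within their intervals, built from Poisson limits in the same way. The Lgals3 log2 ratio in microglia-like cells, -0.27 with all cells, rests on 1 uninjured cell, without which the uninjured cells had no UMI and Lgals3 was at least 28.2-fold higher in injured cells. The uninjured microglia-like, ependymal-like and endothelial-like values rest on 31, 31 and 26 cells, and their intervals are wide accordingly.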
